A study of Mus musculus with 19 samples.

Results

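Dorsal root ganglia of mice were read for 9 genes of myelinating Schwann cells, the glia that wrap single axons of peripheral nerves in myelin: Mbp, Pmp22, Prx, Mag, Egr2, Ncmap, Cldn19, Drp2 and Gjb1. They were taken by gene symbol, and all 9 were found among the 36682 genes of the deposited table. The RNA came from the L3 to L5 ganglia, pooled per mouse and, in operated mice, taken on the side of the operated knee. The 19 mice were male and homozygous for the MaFIA transgene. In this strain the promoter of Csf1r, a receptor gene of macrophages and related myeloid cells, drives a Fas-based suicide protein that the dimerizing drug AP20187 switches on, and the control mice carry the transgene too. Destabilization of the medial meniscus (DMM), a surgical model of knee osteoarthritis, had been done in 10 mice, which were injected 8 weeks after surgery. Of these, 5 received AP20187 and 5 received vehicle. The naive mice were age-matched, and 4 received AP20187 and 5 received vehicle. Every mouse had 5 daily intraperitoneal injections. Libraries are named by the mouse numbers in the labels.

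A myelinating Schwann cell switches on its myelin genes when the transcription factor Egr2 (also called Krox20) acts together with Sox10, and axonal neuregulin, read by Erbb2 and Erbb3, sets how much myelin is made. Mbp encodes myelin basic protein, which compacts the cytoplasmic faces of the myelin membrane. Pmp22 encodes a membrane protein of compact myelin whose gene dosage underlies an inherited neuropathy. Mag encodes the adhesion protein of the membrane that faces the axon. Prx (periaxin) and Drp2 (dystrophin-related protein) join each other and the dystroglycan complex at the outer Schwann cell membrane. Cldn19 encodes the claudin of the tight junctions between myelin layers, Gjb1 encodes connexin 32, the gap junction protein of non-compact myelin, and Ncmap encodes a protein of non-compact myelin. Mbp and Mag are also made by oligodendrocytes, and Egr2 also by some immune cells.

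Per the deposited table, on build GRCm39, Pmp22 (ENSMUSG00000018217) lies on chromosome 11 at 63019808 to 63050373 and Mag (ENSMUSG00000036634) on chromosome 7 at 30598601 to 30614298. Prx (ENSMUSG00000053198) lies on chromosome 7 at 27196813 to 27219639, and its partner Drp2 (ENSMUSG00000000223) on chromosome X at 133305300 to 133357322. Cldn19 (ENSMUSG00000066058) is at 119112611 to 119119635 and Ncmap (ENSMUSG00000043924) at 135096887 to 135125501 of chromosome 4. Gjb1 (ENSMUSG00000047797) is at 100419984 to 100429235 of chromosome X, and Egr2 (ENSMUSG00000037868) at 67371413 to 67378018 of chromosome 10. None of the 9 overlapped an annotated gene on its own strand.

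Because the members' levels moved together across libraries, as shown further on, sequence upstream of their start sites was examined. RefSeq start sites on build GRCm38.p6 were found for 7 of the 9 members, which gave 21 windows of 250 bases before a start. Both strands were searched for short cores of factor families that act on myelin genes. These cores were GCGTGGG of EGR factors, ACAAAG and ACAATG of SOX factors, GGAATG of TEAD factors, and the TATA box TATAAA. The EGR core was in windows of 2 of the 7 genes, Prx and Ncmap, and in 4.3% of all 32851 RefSeq windows of this length. The TEAD core was in windows of 5 genes, namely Pmp22, Prx, Mag, Egr2 and Gjb1, and in 12.6% of all windows. The SOX cores were in windows of Gjb1 (both) and Mag (ACAAAG), against 16.5% of all windows for ACAAAG and 10.7% for ACAATG. Genes with many start sites have more windows, so the counts per gene and the shares per window differ in kind. Counted per window, the EGR core was in 2 of the members' 21 windows, the TEAD core in 5, ACAAAG in 4 and ACAATG in 1. Some of these windows overlap each other. Shown here, 5′ to 3′ on the gene's strand and ending at the base before the start, are the one window with both EGR and TEAD cores (chr7:27499074-27499323), the one Pmp22 window with a match (chr11:63128732-63128981) and the Gjb1 window with the most matches (chrX:101383482-101383731), with the matches in capitals.
Prx: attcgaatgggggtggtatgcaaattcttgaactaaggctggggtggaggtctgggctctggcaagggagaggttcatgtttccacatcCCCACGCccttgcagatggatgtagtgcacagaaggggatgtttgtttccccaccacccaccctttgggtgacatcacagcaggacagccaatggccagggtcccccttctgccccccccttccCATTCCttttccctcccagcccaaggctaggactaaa
Pmp22: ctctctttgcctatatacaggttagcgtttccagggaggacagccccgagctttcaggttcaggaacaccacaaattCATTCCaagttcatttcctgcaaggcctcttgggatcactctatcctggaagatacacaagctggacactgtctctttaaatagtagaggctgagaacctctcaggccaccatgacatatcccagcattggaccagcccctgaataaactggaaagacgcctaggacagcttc
Gjb1: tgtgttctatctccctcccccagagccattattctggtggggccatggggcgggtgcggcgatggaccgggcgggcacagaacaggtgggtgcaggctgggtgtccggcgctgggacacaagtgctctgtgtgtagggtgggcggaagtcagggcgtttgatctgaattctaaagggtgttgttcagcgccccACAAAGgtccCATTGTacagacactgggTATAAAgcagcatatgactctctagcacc
In the Prx window the EGR core reads CCCACGC, on the opposite strand, 161 bases before the start, and the TEAD core CATTCC, also on the opposite strand, 37 bases before it. In the Pmp22 window the TEAD core reads CATTCC, 173 bases before the start. The Gjb1 window holds ACAAAG at 57, CATTGT at 47 and TATAAA at 29 bases before the start, and its TATA box is the only one among the 21 windows (12.4% of all windows have one). No 2 of these matches overlap. A match describes the letters and shows no binding.

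Libraries held 60984830 to 74691396 counts. All 9 members passed the filter on low counts, with between 167 counts (Gjb1) and 159039 counts (Mbp) in a library. Myeloid transcripts set the AP20187 groups apart. The summed level of 10 granulocyte and precursor genes (Mpo, Elane, S100a8 and others) was 15060 to 25779 CPM, the count scaled to a common library size, in DMM with AP20187 against 355 to 6742 in DMM with vehicle. Among naive mice, AP20187 libraries held 6931 to 24446 CPM of these genes and vehicle libraries 718 to 1979. The summed level of 12 sensory neuron genes was 2290 to 9141 CPM in DMM with AP20187 against 6584 to 18569 in DMM with vehicle, and 3038 to 15299 against 9882 to 21344 in the naive groups. The sum of 8 skeletal muscle genes was 13.8 to 449.6 CPM in naive vehicle libraries and 1644 to 2538 in naive AP20187 ones. In edgeR 11.3% of all genes were higher and 12.4% lower with AP20187 in DMM, and 8.61% higher and 2.57% lower in naive. Of 10 granulocyte genes 9 rose in DMM and 10 in naive. Of 8 macrophage genes 1 passed as higher in DMM, close to the share of all genes, and 3 in naive. Further, 5 of 7 erythroid genes fell in DMM and 0 in naive, and 0 of 5 fibroblast genes passed in either (0 at an unadjusted p under 0.05, 0 by DESeq2). Of the 8 muscle genes 1 fell in DMM and 3 rose in naive. The part of these differences in the results below was not tested. In whole ganglia, fewer cells of a type and less RNA per cell cannot be told apart.

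The members covered a wide range of levels. Per length, in FPKM, Pmp22 was the most abundant in the naive vehicle ganglia at 487 ± 105 (SD, n = 5), followed by Mbp at 144 ± 62.2, Prx at 43.5 ± 18.2, Drp2 at 26.0 ± 8.72 and Ncmap at 16.2 ± 7.45. Cldn19 stood at 6.88 ± 1.53, Egr2 at 4.23 ± 1.26, Gjb1 at 3.68 ± 1.10 and Mag at 3.59 ± 0.669. Pmp22 (383 to 651 FPKM) did not overlap Mbp (95.6 to 251), and Mbp did not overlap Prx (28.3 to 75.2). Prx and Drp2 (19.05 to 41.0) overlapped, Drp2 and Ncmap (9.85 to 27.9) overlapped, and Egr2, Gjb1 and Mag lay within each other's spread. The label was checked against oligodendrocyte markers, since those cells also make Mbp and Mag: the oligodendrocyte-restricted Mog was at 0.505 ± 0.148 FPKM in the same 5 libraries, below all 9 members. Olig2, Opalin, Hapln2 and Ermn were between 0.0799 and 0.403 FPKM on average and Mobp at 2.74 ± 0.266. Cldn11, also on that list, was higher, at 11.2 ± 8.52 FPKM, above the means of Cldn19, Egr2, Gjb1 and Mag. The part of oligodendrocytes in the levels of Mbp and Mag was not tested. Mog was lower still in naive with AP20187, at 0.105 ± 0.0817 FPKM (n = 4), with at least 1 library at 0. The 8 oligodendrocyte genes together summed to between 24.8 and 96.4 CPM in any library. With AP20187 0 of the 8 passed in DMM (0 at an unadjusted p under 0.05, 0 by DESeq2), and in naive mice 2 of the 8 fell and 0 rose, where 2.57% of all genes were lower, Mog among them (log2 -2.05, adjusted p = 0.0443, edgeR). Of 7 satellite glia genes, 1 fell and 0 rose in each AP20187 contrast, where 12.4% of all genes were lower in DMM and 2.57% in naive (Ednrb, by 1.24 in DMM and by 0.91 in naive, with libraries scaled to all genes), while the list's median was -0.16 in DMM and 0.29 in naive.

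In DMM mice, AP20187 was compared with vehicle, the contrast that asks what the drug does to ganglia of mice with the joint injury. Pmp22, Cldn19 and Egr2 fell by 0.83, 1.05 and 0.81 on the log2 scale. Of the 9 estimates, 8 were below 0 and that of Drp2 was near 0. The median of the members was -0.65, against -0.10 over all genes tested. Of 9 members, 3 passed an adjusted p of 0.05 in edgeR's quasi-likelihood test, all lower, where 23.8% of the 22778 genes passed in either direction, 12.4% as lower and 11.3% as higher. With libraries scaled to 40 neuronal and glial genes that include no member, none passed, Cldn19 (-0.28) and Pmp22 (-0.02) kept estimates below 0, Egr2 turned to 0.03, and the members' median was 0.13, with 2 of 9 below 0. That scaling moved the median of all genes by 0.94, to 0.84.

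**Figure D1:**
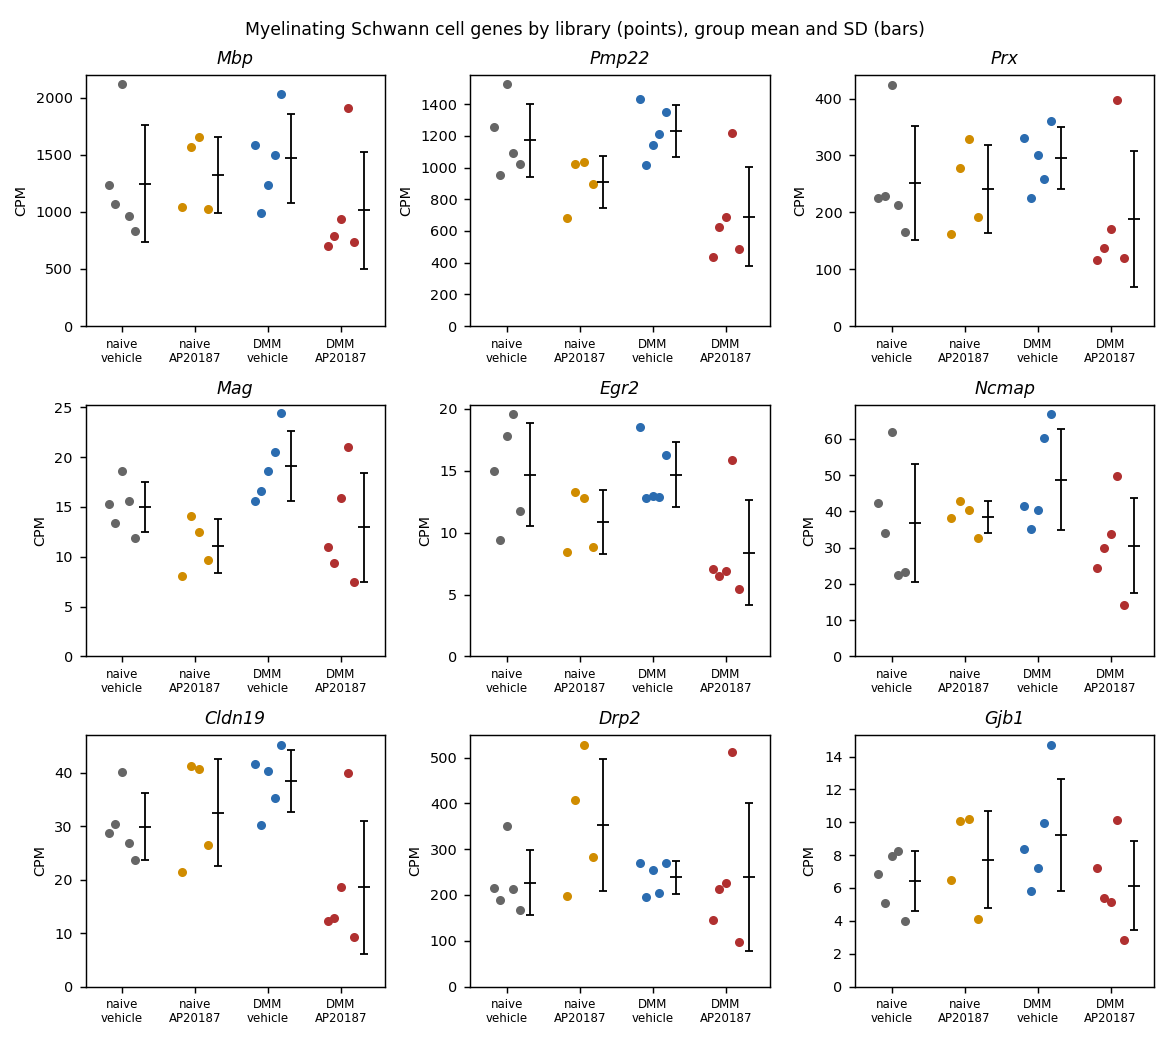
Level of each of the 9 genes in CPM (y axis, linear from 0) in every library (points) of the 4 groups (x axis), with the group mean and SD beside the points. In DMM with AP20187, 1 library, number 61, was the highest of its 5 for all 9 genes, and for Cldn19 the other 4 lay between 9.31 and 18.6 CPM, below every DMM vehicle library.

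Among the proteins of compact myelin and its inner face, Pmp22 read 436, 625, 690, 1217 and 484 CPM in DMM AP20187 mice 58, 59, 60, 61 and 62, and 1432, 1019, 1144, 1209 and 1353 CPM in DMM vehicle mice 32, 33, 34, 63 and 64. Of the 5 AP20187 libraries, 4 were below every vehicle library and number 61 lay within their range. The log2 fold change was -0.83 (SE 0.24, adjusted p = 0.0192, edgeR). Mbp (ENSMUSG00000041607, chromosome 18, 82493271 to 82603762), in the same order of mice, read 697, 789, 935, 1908 and 732 CPM with AP20187 and 1584, 989, 1233, 1497 and 2031 CPM with vehicle. Again 4 AP20187 libraries were below all vehicle libraries and number 61 was near the top, and the estimate of -0.53 (SE 0.31) did not pass (adjusted p = 0.217, edgeR). Mag read 10.96, 9.40, 15.9, 21.1 and 7.46 CPM against 15.6, 16.6, 18.6, 20.5 and 24.4 CPM. Here 3 of 5 lay below all vehicle libraries, with an estimate of -0.56 (SE 0.24, adjusted p = 0.0986, edgeR).

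Prx and Drp2, the pair at the outer membrane, had different estimates, and the difference between them was not tested. Prx read 115, 138, 171, 397 and 119 CPM with AP20187 and 330, 225, 301, 259 and 361 CPM with vehicle. Number 61 exceeded every vehicle library while the other 4 lay below them all, and the estimate was -0.65 (SE 0.33, adjusted p = 0.158, edgeR). Drp2 read 146, 213, 226, 512 and 98.2 CPM with AP20187, and 269, 195, 254, 205 and 271 CPM with vehicle. Of the AP20187 libraries, 2 were below the vehicle range, 2 were inside it and number 61 was far above it. The log2 difference was 0.0007, with a 95% interval from -0.73 to 0.73, so a difference in either direction of up to that size was not resolved.

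Among the junction and non-compact myelin genes, Cldn19 read 12.3, 12.8, 18.6, 40.0 and 9.31 CPM with AP20187 and 41.6, 30.3, 40.4, 35.2 and 45.2 CPM with vehicle. It had the lowest estimate of the 9, -1.05 (SE 0.31, adjusted p = 0.0232, edgeR), and only number 61 reached the vehicle range. Ncmap read 24.5, 29.8, 33.8, 49.8 and 14.2 CPM against 41.4, 35.1, 40.3, 60.1 and 66.8 CPM. Its estimate was -0.68 (SE 0.30, adjusted p = 0.110, edgeR), with 4 of 5 libraries below all vehicle ones. Gjb1, the least counted member, read 7.18, 5.41, 5.17, 10.1 and 2.84 CPM against 8.39, 5.83, 7.19, 9.97 and 14.7 CPM. The groups overlapped, and the estimate was -0.58 (SE 0.34, adjusted p = 0.218, edgeR).

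Egr2, the transcription factor of the myelin program, read 7.09, 6.48, 6.93, 15.9 and 5.47 CPM with AP20187 and 18.5, 12.8, 12.9, 12.9 and 16.3 CPM with vehicle. Of the AP20187 libraries, 4 lay within 5.47 to 7.09 CPM and number 61 was at the level of the vehicle libraries. The estimate was -0.81 (SE 0.27, adjusted p = 0.0391, edgeR), and 12 of 22 alternative settings, fits without 1 library included, ended this call. With scaling to neuronal and glial genes it was 0.03 (adjusted p = 0.954).

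No member had groups that did not overlap in this contrast, where 4.18% of all genes were lower without overlap. Single libraries decided the count of members that passed. Without AP20187 number 61, 7 of 9 passed in edgeR, all lower, among 16.0% of all genes: Cldn19 -1.54, Egr2 -1.18, Pmp22 -1.14, Prx -1.12, Ncmap -0.93, Mbp -0.90 and Mag -0.81. Without AP20187 number 58, without AP20187 number 62 or without vehicle number 32, none passed, and without AP20187 number 59, 1 passed. The shares of all genes called in these fits are not given here, so the counts have no background beside them. Over the 10 fits that each left out 1 library, Cldn19 was at -0.88 or lower, with an adjusted p of at most 0.0651 in edgeR, and lost its call in 4. Pmp22 was at -0.71 or lower, with an adjusted p of at most 0.0553, and lost its call in 3. Egr2 was at -0.69 or lower, with an adjusted p of at most 0.101, and lost its call in 7. DESeq2 passed 3 of 9.

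**Figure D2:**
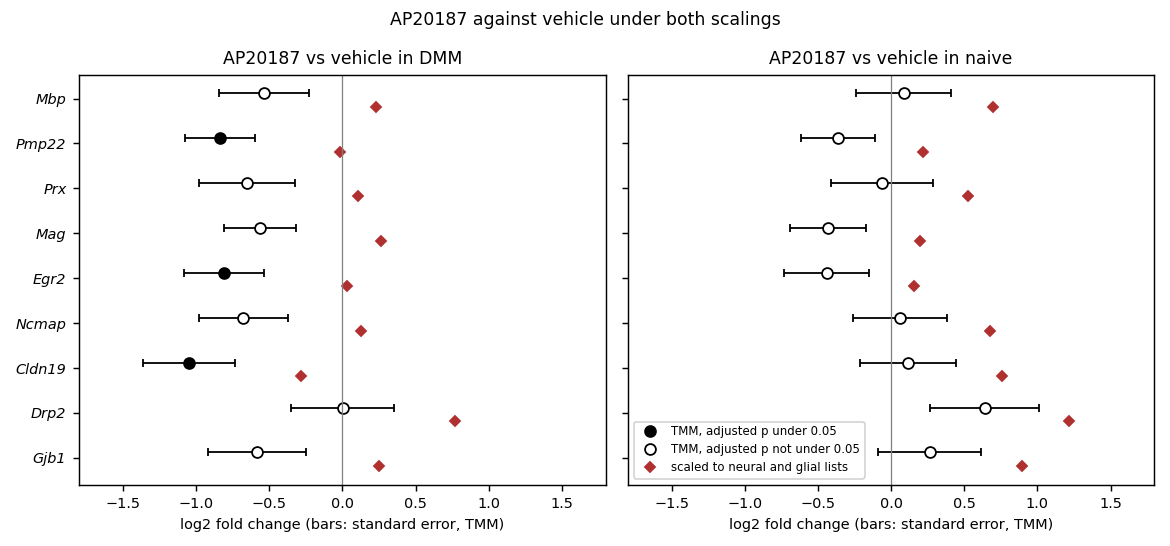
Log2 fold change of AP20187 against vehicle (x axis) for the 9 genes (rows), in DMM mice (left) and naive mice (right). Circles with standard error bars are from libraries scaled to all genes, filled where the adjusted p was under 0.05, and diamonds are from libraries scaled to 40 neuronal and glial genes; every diamond lies to the right of its circle.

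In naive mice, no member passed as higher or lower with AP20187. The 95% intervals were wide, such as -1.05 to 0.17 for Egr2, so differences within them were not resolved. The largest estimate was that of Drp2, which read 197, 407, 527 and 282 CPM in AP20187 mice 1, 3, 4 and 5, and 215, 190, 350, 212 and 168 CPM in vehicle mice 1 to 5. Of the AP20187 libraries, 2 exceeded every vehicle library and 2 lay inside the vehicle range. The log2 difference was 0.64 (SE 0.37, adjusted p = 0.257, edgeR), with a 95% interval from -0.14 to 1.41. The lowest estimates were Egr2 -0.44, Mag -0.43 and Pmp22 -0.37, and those of Prx, Ncmap, Mbp, Cldn19 and Gjb1 lay between -0.06 and 0.26. In edgeR 0 of 9 members passed, 0 had an unadjusted p under 0.05, and DESeq2 passed 0, where edgeR called 11.2% of all genes, 2.57% as lower and 8.61% as higher. The members' median was 0.06, against -0.07 over all genes, and with scaling to neuronal and glial genes it was 0.68, with all 9 estimates above 0 and none passing. That scaling moved the median of all genes by 0.54, to 0.47.

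Pmp22 in the naive groups read 683, 1023, 1033 and 896 CPM with AP20187 and 1256, 951, 1529, 1094 and 1024 CPM with vehicle. The ranges met between 951 and 1033 CPM. Mag read 8.11, 14.1, 12.5 and 9.71 CPM against 15.3, 13.4, 18.6, 15.5 and 11.9 CPM, again with overlap. Egr2 read 8.40, 13.3, 12.8 and 8.81 CPM against 14.9, 9.41, 17.8, 19.6 and 11.8 CPM. In each of the 3 genes the highest naive library was one from a vehicle mouse.

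Since Drp2 stood apart from the other members in both AP20187 contrasts, each member was also set against Drp2 within its own library, as the ratio of their FPKM values, a measure that no scaling of libraries alters. Drp2 was chosen for this after its values were seen, so the ratios are a description with no test. Cldn19 per Drp2 was 0.121 to 0.190 in DMM with AP20187 and 0.310 to 0.345 in DMM with vehicle, and 0.155 to 0.219 against 0.230 to 0.321 in the naive groups. The AP20187 libraries, number 61 included, were thus all below the vehicle libraries of the same surgery group. In DMM, Cldn19 was the 1 of 8 members without overlap, where 0.623% of the other 22777 genes tested had a ratio to Drp2 that was lower without overlap. Cldn19 had the lowest and Drp2 the highest DMM estimate of the members, -1.05 and 0.0007. This gap therefore restates in part the choice of Drp2, and the share of all genes is no test of it.

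In naive mice 5 of the 8 ratios were lower with AP20187 without overlap (6.46% of all genes). Pmp22 per Drp2 was 7.13 to 12.6 with AP20187 and 15.9 to 22.2 with vehicle. Prx per Drp2, the outer membrane partners, was 0.944 to 1.25 against 1.49 to 1.83. Mag per Drp2 was 0.0495 to 0.0863 against 0.111 to 0.154, and Egr2 per Drp2 was 0.0610 to 0.107 against 0.125 to 0.232. Drp2 had the largest naive estimate of the 9, so lower ratios to it restate in part why it was chosen, and no member passed the test there. In DMM, Pmp22 per Drp2 was 8.64 to 17.9 against 16.4 to 21.4 and Prx per Drp2 was 0.979 to 1.84 against 1.75 to 2.02, and both overlapped through number 62 alone. Number 61, the highest of its group in level, had 8.64 for Pmp22 and 1.17 for Prx, with the other low ratios, while number 62, the lowest in level for 6 members, had both of these ratios inside the vehicle range.

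**Figure D3:**
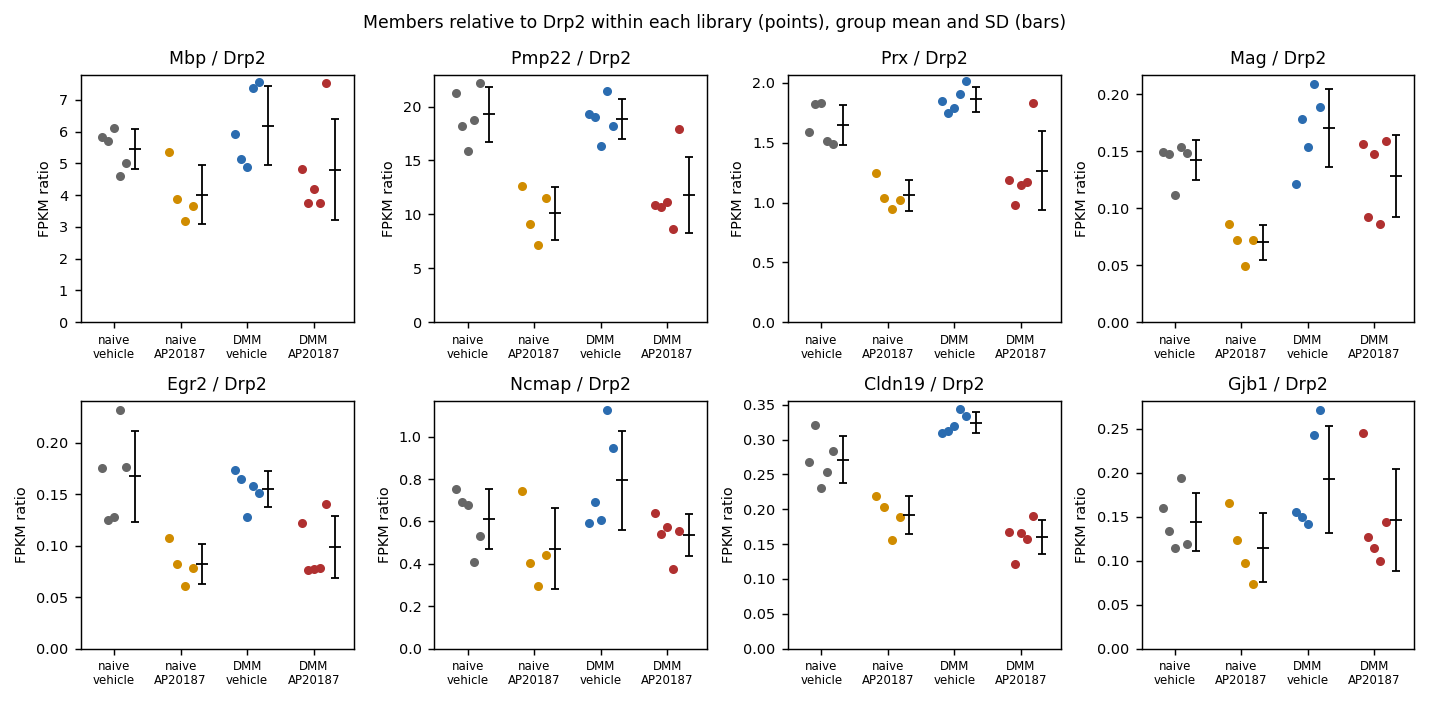
Ratio of each member's FPKM to that of Drp2 in the same library (y axis, linear from 0) for every library (points) of the 4 groups (x axis), with group mean and SD. Cldn19 per Drp2 was at most 0.190 in DMM with AP20187 and at least 0.310 in DMM with vehicle.

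Surgery was compared under each treatment. With vehicle, DMM and naive ganglia did not separate: the estimates ran from -0.0008 for Egr2 to 0.52 for Gjb1, with a median of 0.24 against 0.03 over all genes. In edgeR 0 of 9 members passed, 0 had an unadjusted p under 0.05 and DESeq2 passed 0, and edgeR called 0 of 22778 genes (0.00%). The interval for Mbp, the best-counted member, ran from -0.40 to 0.88. With AP20187, the estimates ran from -0.81 for Cldn19 to 0.23 for Mag, with a median of -0.37 against -0.01 over all genes. None passed in edgeR or DESeq2, 1 had an unadjusted p under 0.05 (Cldn19, adjusted p = 0.226), and edgeR called 0.702% of all genes. Without DMM AP20187 number 61, Cldn19 was at -1.30 and passed (adjusted p = 0.0222, edgeR).

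The interaction, which is the AP20187 difference in DMM minus that in naive, tested whether the drug's contrast depended on surgery. All 9 estimates were below 0, from -1.17 (SE 0.45) for Cldn19 to -0.13 (SE 0.35) for Mag, with a median of -0.62 against -0.08 over all genes. None passed in edgeR or DESeq2. Cldn19 alone had an unadjusted p under 0.05 (adjusted p = 0.517, edgeR), and 0.114% of all genes passed. A difference between the surgery groups in the response of these genes was therefore not shown. All of these contrasts share libraries.

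Other myelin genes were read from a list of 12 (structural proteins and enzymes of myelin lipids). In DMM, 3 of 12 were lower with AP20187 and 0 higher, with a median of -0.55, where 12.4% of all genes were lower and 11.3% higher (the shares for each list below). Pmp2, a lipid-binding protein of peripheral myelin, fell from 62.1 to 19.3 CPM in mean (log2 -1.68, adjusted p = 0.00302, edgeR), and its groups did not overlap. Tspan2, a tetraspanin, was at -0.91 (adjusted p = 0.0196). Without number 61, which was the highest of its group for every member, 9 of 12 passed, all lower. The share of all genes given above for the members without number 61 belongs to the same fit. Fits without any other library are not given for this list. In naive mice 0 of 12 passed in edgeR, where 11.2% of all genes passed, and 2 had an unadjusted p under 0.05. DESeq2 passed 2, but its share of all genes is not given here, so this count says nothing particular about the list. With scaling to neuronal and glial genes the median in DMM was 0.27 and none passed.

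Of 14 regulators and receptors of Schwann cells, 3 fell and 1 rose in DMM, a share near that of all genes called in this contrast (23.8%), so the count says nothing particular about the list. Sox10, the partner of Egr2, fell from 39.8 to 23.4 CPM (log2 -0.77, adjusted p = 0.0117, edgeR). Erbb3, the neuregulin receptor, was at -0.80 (adjusted p = 0.0284), and Pou3f1 (Oct6), a factor that acts before Egr2, was at -1.28 (adjusted p = 0.0206) from a mean of 2.26 CPM. Nab1, a corepressor that binds Egr2, rose by 0.45 in DMM (adjusted p = 0.0138) and was the 1 gene of the list that passed in naive mice, also by 0.45 (adjusted p = 0.0289). These genes are part of the neuronal and glial scaling, under which 2 of the 14 were higher and 0 lower in DMM, where that scaling called 35.0% of all genes and 0.742% as lower.

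The dystroglycan complex and basal lamina, to which Drp2 and Prx attach, had 3 of 10 genes lower in DMM and 0 higher: Sgcb (sarcoglycan) at -0.70, Dmd (dystrophin) at -0.57 and Dag1 (dystroglycan itself) at -0.55, with adjusted p of 0.0111, 0.0347 and 0.0429 in edgeR. Genes of the node, paranode and axon adhesion, several of which neurons express, had 7 of 12 lower and 0 higher. Gldn (gliomedin, which gathers sodium channels at nodes) fell from 21.0 to 8.38 CPM (log2 -1.33, adjusted p = 0.0064, edgeR). Cadm2, Cdh1, Cadm4 and Cadm1, adhesion proteins, were at -0.92, -1.46, -0.89 and -1.50, and all passed. With scaling to neuronal and glial genes 0 of 12 node genes passed, and 1 of 10 dystroglycan genes passed, as higher, again against 35.0% of all genes called under that scaling.

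Genes of immature and repair Schwann cells or brakes on myelination went both ways in DMM, with 2 of 14 higher and 4 lower. Notch1 and Id2, brakes on differentiation that many other cells also express, rose by 1.45 and 1.35 (adjusted p of 0.00173 and 0.00787, edgeR). Gap43, Shh, Id4 and Sox2 fell, to -1.12, -1.67, -1.08 and -0.96, and Jun, the main regulator of repair Schwann cells, was at -0.40 without passing (adjusted p = 0.148). In naive mice Id2 rose by 1.09 (adjusted p = 0.0449) and Olig1 fell by 1.35 (adjusted p = 0.0485). Pax3 also passed there, from at most 1 count in a naive vehicle library and at most 24 in a naive AP20187 library, too few for a fold. Of 7 genes of non-myelinating Schwann cells 5 fell in DMM, with Gfra3 at -1.81, Ncam1 at -1.27, Cdh2 at -1.21, Ngfr at -1.72 and L1cam at -1.70. Sensory neurons express several of these, and 8 of 12 neuron genes fell as well, with a median of -1.37. Both of these lists are part of the neuronal and glial scaling, under which 1 gene of each list passed, as lower (0.742% of all genes).

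**Figure D4:**
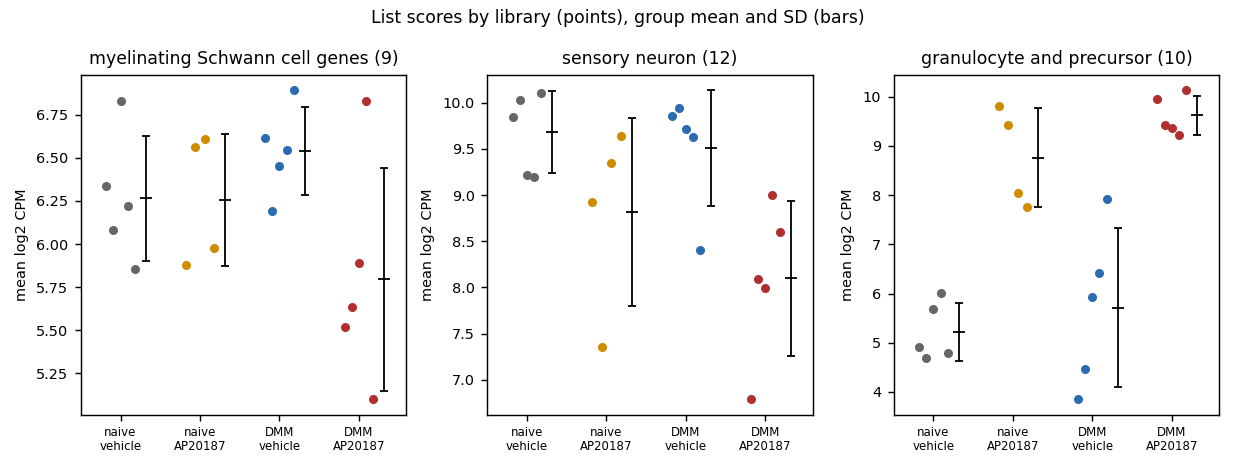
Mean log2 CPM (y axis, a log scale that does not start at 0) over the 9 myelinating Schwann cell genes, 12 sensory neuron genes and 10 granulocyte and precursor genes in every library (points) of the 4 groups (x axis), with group mean and SD. The myelin score of DMM AP20187 number 61, 6.83, lay with the highest libraries of the other groups, and that of number 62, 5.10, was the lowest of all 19.

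Across the 19 libraries the members moved together. The 36 pairs had Pearson correlations of log2 CPM from 0.47 (Mag with Drp2) to 0.95 (Mbp with Prx), with a median of 0.75. With group means removed the median was 0.80, and Mag with Drp2 was at 0.84, so their low pooled value came with differences between groups. Against the mean of the other 8, Prx had 0.96, Cldn19 0.94 and Mbp 0.93, while Drp2 had the lowest, 0.74, and 0.93 with group means removed. Often the same mice set the ends of a group. DMM AP20187 number 61 was the highest of its group for 9 of 9 genes and number 62 the lowest for 6. DMM vehicle number 64 was the highest for 7 and number 33 the lowest for 8, and naive vehicle number 3 was the highest for 7. In naive AP20187 the highest values were split between number 4 (5 genes) and number 3 (4 genes), and number 1 was the lowest for 6. All points share library, depth scaling and cell mix, so these are descriptions.

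Of 14466 other genes, those close to the members' mean across the 19 libraries included Slc36a2, an amino acid transporter (r = 0.96), Plekha7, an adherens junction protein (0.94), Cdkn1a, the cell cycle inhibitor p21 (0.94), and Nes, the intermediate filament nestin (0.94). Then came Ugt8a, the enzyme that starts galactolipid synthesis (0.92), the adaptor Shc4 (0.92), the semaphorin Sema3b (0.91), Rimklb (0.91) and the myelin proteolipid Mal (0.90). With group means removed these genes stood at 0.89 to 0.94. The mean of the 12 other myelin genes followed the members at 0.94, while the neuron list was at 0.27 and the granulocyte list at -0.38. With group means removed, the neuron and granulocyte lists were at -0.12 and 0.08. Co-movement was not limited to myelin genes. The list of brakes and repair genes was at 0.75 (0.66 with group means removed) and the regulators and receptors at 0.73 (0.80). The dystroglycan and basal lamina list was at 0.64 (0.55) and satellite glia at 0.48 (0.41). The remaining lists lay between -0.06 and 0.43.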

How the data were processed

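Stranded poly(A) libraries of whole ganglia were sequenced. The submitters' processing notes name cutadapt, HISAT2, StringTie and build GRCm39, and the counting program and annotation release are not given in the sources used here. The authors deposited a table with unnormalized counts and, beside them, FPKM (fragments divided by gene length and sequencing depth). The counts went into edgeR 4.0.16 (R 4.3.3): TMM normalization, filterByExpr with a minimum count of 10, which left 22778 of 36682 genes, 1 quasi-likelihood model of 4 groups (15 residual degrees of freedom), 5 contrasts, two-sided tests and Benjamini-Hochberg adjustment over all genes tested, with a threshold of 0.05. CPM values use TMM library sizes. FPKM served for levels and ratios. Alternatives used DESeq2 1.42.0 and limma 3.58.1. The fit was tested on simulated data.

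The 9 members and the lists were chosen with earlier results of these data known. Named were all members, of each other list up to 5 genes with the smallest p among those passing in a contrast plus 8 set genes, and the 10 genes most like the members. Some genes under this rule are not reported here. Each library is 1 mouse, the unit of replication. A listed symbol with 2 gene identifiers was not used. Precision is set by the spread between mice, since every member had at least 167 counts per library.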

Additional observations from a re-analysis of the deposited data

Results flagged for a closer look

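Of 36 sets of values (9 members in 4 groups), 5 held a library whose gap to the nearest of the others was a large part of its group's range by Dixon's test, which flags about 1 in 20 sets by chance. Of these, 3 were DMM AP20187 number 61: Egr2 at 15.9 CPM (the other 4 at 5.47 to 7.09), Mbp at 1908 CPM (697 to 935) and Prx at 397 CPM (115 to 171). The other two were naive vehicle number 3, with Prx at 424 CPM (165 to 229) and Drp2 at 350.0 CPM (168 to 215). Members move together across libraries, so these flags are not independent.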

How the results depend on the processing

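Of the members that passed in DMM, 3 under the settings used, the count was 6 without AP20187 number 61 and vehicle number 64 together (chosen after seeing the data), 0 with only vehicle numbers 63 and 64 kept (Cldn19 -1.10, adjusted p = 0.141, edgeR), 1 with only the groups of the contrast fitted, and 0 with scaling to neuronal and glial genes, where Egr2 turned to 0.033. Leaving out 1 library at a time gave 0 to 7 members. It was 4 with limma's voom and sample weights, 2 without a filter on low counts, 2 with only vehicle numbers 32 to 34 kept (Cldn19 -1.01, adjusted p = 0.0386), and 3 with DESeq2, without TMM, with a minimum count of 50 and on log2 FPKM with a pseudocount of 1 or 0.1. For DMM against naive with AP20187 it was 0, and 1 with voom weights; leaving out 1 library at a time gave 0 to 1. For AP20187 against vehicle in DMM, the share of all genes called, 23.8% under the settings used, was not the same under every setting. The counts of members therefore cannot be read as a trait of the members alone. The causes were not tested. The vehicle mice were split because their numbers fall in those 2 runs, and the labels do not say whether these are separate cohorts. In the other contrasts the count was 0 under every alternative run. A fit of only the groups of the contrast is the full fit for the interaction and was not run apart. In naive mice the numbers 1, 3, 4 and 5 occur in both treatments. Same-numbered libraries correlated at 0.01, 0.25, -0.05 and 0.22 in their deviations from the group means. AP20187 numbers 3 and 5 correlated best with their own number, and numbers 1 and 4 did not. The labels do not say that the numbers pair the mice, and so few pairs cannot decide it. With the replicate number as a block, 0 members passed and 11.5% of genes were called.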
